A study of Mus musculus with 57 samples.

Results

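Among 9675 annotated long noncoding RNA (lncRNA) genes with values in a mouse oocyte and preimplantation embryo series, 98 were near absent in MII oocytes and zygotes and present at the early 2-cell stage. Membership was set by measured values: a mean below 0.5 FPKM (a level given as fragments scaled to transcript length and library size) in MII oocytes and in zygotes, and a mean of at least 1 FPKM in E2-cell embryos. By GENCODE M21 biotype the 98 comprised 58 lincRNA, 28 antisense, 7 sense_intronic and 4 processed_transcript genes and 1 bidirectional_promoter_lncRNA gene. A Platr gene, Platr31, met the same thresholds and was left out by the rule. The contrast of E2-cell embryos with oocytes and zygotes therefore chose the lncRNAs and is given only as a description.

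The series is total RNA-seq, covering 57 samples in 18 groups, of pools of about 150 to 200 oocytes or embryos, made by in vitro fertilization with BDF1 sperm and read as 150-bp pairs. The stage series was wild-type C57BL/6, with 2 columns of values for each stage: MII oocytes, Zygote, E2-cell, L2-cell, 4-cell and 8-cell embryos, then Morula, then Blastocyst. BDF1 wild-type embryos collected 14, 17 and 20 h after fertilization formed a time series with 2 columns each. The MT2Mm experiment, in BDF1 with a labelled age of 6 to 8 weeks, held 3 libraries each of Early2c_MT2Mm_ko, Early2c_MT2Mm_ctrl, Late1c_MT2Mm_ko and Late1c_MT2Mm_ctrl. The ko samples received Cas9 mRNA (100 ng/uL) mixed with sgRNA (150 ng/uL), with 5 to 10 pL injected per MII oocyte, so each pool was of injected embryos and not a line, and the ctrl samples were labelled wild type with no injection listed. The LncR-3363 experiment, also in BDF1, held 4 libraries of KD-1cell, 1 of KD-2cell and 4 of Ctrl. Its knockdown samples had received an antisense oligonucleotide (ASO) at 20 uM, with 5 to 10 pL injected. The Ctrl samples were labelled wild type with no injection listed. In this and the MT2Mm experiment, injection and the treatment cannot be told apart. The LncR-3363 samples carried no stage other than embryo, and what 1cell and 2cell stand for in those names was not given. No label stated that replicates came from separate collections, so p-values here measure only the spread between these libraries, which may be technical.

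lncRNAs are transcripts without a long open reading frame, and many are spliced and polyadenylated like messenger RNA. In the mouse, the embryo's own genome is first transcribed strongly at the 2-cell stage, when the endogenous retrovirus MERVL and genes that use its long terminal repeat, MT2_Mm, as a promoter are switched on, partly through the transcription factor DUX. MT2Mm in the labels names that repeat class, which is present at many places in the genome and is not a row of the expression table, so cutting by the guides was not checked here.

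The transcripts of 45 of the 98 lncRNAs (45.9%) held versions of the same stretch of 96 bases near their start. It was found within the first 300 bases of a GENCODE M21 transcript on the same strand, and began at base 1 to 10 in 9 of the 45. The stretch, defined on Gm15218 after the sequences had been compared with each other, was counted where at least 80 bases aligned at an identity of at least 80%. It was present in 20 of the other 9577 annotated lncRNA genes (0.209%), in 16 of the 1370 of those that passed the expression filter (1.17%) and in 63 of 21918 protein-coding genes (0.287%). It was carried by 31 of the 58 lincRNA genes (53.4%), 4 of the 7 sense_intronic genes (57.1%), 2 of the 4 processed_transcript genes (50%) and 8 of the 28 antisense genes (28.6%). Identity to Gm15218 was at least 90% in 40 of the 45 and under 90% in the other 5, and 5 further lncRNAs held a shorter match. Neither the guide sequences nor a repeat annotation was used here, so whether the stretch belongs to an MT2_Mm copy was not looked up.

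The sequences below are shown because the knockout results further on are given by whether a lncRNA carries this stretch. They are read 5′ to 3′ from the GENCODE M21 transcripts (GRCm38), and capitals mark bases that differ from those of Gm15218 or are added to them. Only the aligned part of each is shown. Bases of Gm15218 missing inside that part carry no mark but count as differences. Gm49236 has 91 printed bases in an alignment of 96, and Gm48419 and Gm8016, shown further on, have 87 in 88. The genes are Gm15218 (chr14:45754689-45993170, plus strand), Drr1 (chrX:15922304-15939249, minus), Gm33466 (chr3:157720404-157726408, minus), Gm44736 (chr7:73670299-73672390, minus), Gm14742 (chrX:77802351-77803280, minus), Gm33248 (chr7:129667405-129693400, plus) and Gm49236 (chr14:122064351-122091226, minus), whose identity of 91.7% was the lowest above 90%.
Gm15218: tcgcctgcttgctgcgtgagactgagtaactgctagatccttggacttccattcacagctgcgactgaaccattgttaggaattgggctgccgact
Drr1: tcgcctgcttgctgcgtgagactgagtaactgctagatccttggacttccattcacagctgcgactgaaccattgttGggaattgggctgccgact
Gm33466: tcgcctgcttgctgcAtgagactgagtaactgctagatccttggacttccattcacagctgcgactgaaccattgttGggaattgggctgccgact
Gm44736: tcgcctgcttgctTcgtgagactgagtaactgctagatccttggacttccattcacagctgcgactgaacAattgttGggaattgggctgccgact
Gm14742: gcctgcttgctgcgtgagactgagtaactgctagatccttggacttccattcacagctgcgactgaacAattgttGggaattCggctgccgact
Gm33248: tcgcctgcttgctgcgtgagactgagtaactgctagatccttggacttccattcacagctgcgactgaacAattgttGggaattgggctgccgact
Gm49236: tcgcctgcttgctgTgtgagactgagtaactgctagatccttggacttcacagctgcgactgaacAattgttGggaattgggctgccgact

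Identity under 90% was seen in 5 lncRNAs, all on chromosome 13. Gm7969, Gm48419 (chr13:67965483-67970239, plus strand) and Gm48423 had an identical version with 11 differences from Gm15218, and Gm8016 (chr13:68353364-68356825, minus) and Gm48436 had an identical version with 12 differences, so the 5 represent only a pair of sequences. All but Gm48436 also have 100% of their longest transcript at 95% identity in transcripts of other genes, so reads may be split among them. C78334 (chr9:96017934-96024740, minus) is shown as a shorter match of 63 bases that starts at the first base of its transcript.
Gm48419: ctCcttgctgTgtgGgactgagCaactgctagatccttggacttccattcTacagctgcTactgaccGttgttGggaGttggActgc
Gm8016: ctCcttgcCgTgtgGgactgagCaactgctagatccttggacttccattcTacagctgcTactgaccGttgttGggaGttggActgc
C78334: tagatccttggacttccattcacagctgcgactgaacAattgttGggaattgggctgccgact

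RefSeq start regions (GRCm38.p6, 250 bases before to 50 bases after a start site) were available for 21 of the 98 lncRNAs. The letters GATTNAATC, which lie at the core of the motif described for mouse DUX, were searched on both strands. They were present in 3 of the 21 (14.3%), against 0.307% of all 27025 genes with a RefSeq start region. These 3, Gm12724, Gm33248 and Gm35974, were also the 3 with the shared stretch and a start region in that table, and 0 of the 18 others with a start region held the letters. Outside the 98, a smaller set than the 27025 was counted, namely annotated genes with values in the series and a start region. Among these the letters were in 10 of 47 with the stretch (21.3%) and in 45 of 20516 without it (0.219%). The start regions of the 3 were chr4:106236872-106237171, chr7:129667175-129667474 and chr16:3468210-3468509, all on the plus strand, with the match in capitals. They are near copies of each other that run into the shared stretch, so the 3 are not separate finds. The RefSeq start of Gm12724 lies upstream of its GENCODE gene start.
Gm12724: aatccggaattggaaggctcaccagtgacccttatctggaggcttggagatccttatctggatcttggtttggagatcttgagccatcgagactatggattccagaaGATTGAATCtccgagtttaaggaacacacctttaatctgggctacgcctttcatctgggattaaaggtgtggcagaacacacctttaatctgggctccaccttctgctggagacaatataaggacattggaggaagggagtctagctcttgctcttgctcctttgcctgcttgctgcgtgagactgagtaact
Gm33248: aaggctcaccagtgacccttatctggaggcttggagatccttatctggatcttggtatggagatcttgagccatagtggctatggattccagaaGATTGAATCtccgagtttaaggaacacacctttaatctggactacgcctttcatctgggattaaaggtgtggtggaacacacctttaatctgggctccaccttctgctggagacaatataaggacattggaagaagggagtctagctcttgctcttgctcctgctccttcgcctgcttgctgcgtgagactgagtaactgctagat
Gm35974: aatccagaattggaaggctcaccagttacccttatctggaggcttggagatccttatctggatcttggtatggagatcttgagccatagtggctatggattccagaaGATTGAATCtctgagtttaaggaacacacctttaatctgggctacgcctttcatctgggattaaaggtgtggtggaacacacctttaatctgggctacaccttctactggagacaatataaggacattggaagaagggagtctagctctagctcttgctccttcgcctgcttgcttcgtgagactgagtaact

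Shares of the other motifs searched stood closer to those of all genes with a start region. The TATA-box letters TATAAA were in 7 of 21 start regions (33.3%, against 15.7% of all), CCAAT in 11 (52.4%, against 41.1%), the GC-box letters GGGCGG in 6 (28.6%, against 38.2%) and GGATTA in 4 (19.0%, against 8.14%). A match to a motif describes the letters only and is not a binding site.

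In the stage series, from which the lncRNAs were chosen, the summed level of the 98 without Gm29103 and Gm43650 was 7.81 and 8.56 FPKM in the MII columns and 7.71 and 5.09 FPKM in the zygote columns. It was 344 and 348 FPKM in E2-cell, 779 and 824 FPKM in L2-cell, 431 and 436 FPKM in 4-cell, 331 and 303 FPKM in 8-cell, 247 and 242 FPKM in Morula and 93.6 and 93.4 FPKM in Blastocyst columns. The columns of a stage lay close together, and the sum was highest at L2-cell. The column names up to L2-cell end in b1, b2 or b3, whose meaning was not given. Both E2-cell columns and the zygote column at 7.71 FPKM end in b2, while both L2-cell columns and an MII column end in b3, so stage and this ending cannot be told apart between E2-cell and L2-cell. In these pools, fewer cells of a type and less RNA per cell cannot be told apart.

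The thresholds were crossed by narrow margins in some lncRNAs. Just inside the E2-cell threshold were Gm44732 at 1.01, Gm7008 at 1.02 and 1700084C06Rik at 1.03 FPKM, and just outside it Gm29066 at 0.997, Gm29125 at 0.986 and B130055M24Rik at 0.975 FPKM. For MII, Gm47512 at 0.478, 1700086P04Rik at 0.467 and A230087F16Rik at 0.456 FPKM were inside, and Gm44123 at 0.504, Gm45058 at 0.504 and Gm28872 at 0.517 FPKM outside. For zygotes, 1700086P04Rik at 0.389, Gm40910 at 0.372 and Gm44732 at 0.340 FPKM were inside, and Gm47551 at 0.529, Gm42439 at 0.57 and Gm42891 at 0.583 FPKM outside. Of the 98, 75 met the thresholds in each of the 6 columns, and 48 were at 0 in all 4 oocyte and zygote columns. In 19 an E2-cell column was below 1 FPKM.

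Levels at E2-cell were modest and the later course varied. The median over the 98 was 2.54 FPKM at E2-cell (range 1.01 to 14.6), 3.56 FPKM at L2-cell, 1.37 FPKM at 4-cell, 0.596 FPKM at 8-cell, 0.184 FPKM at Morula and 0.0252 FPKM at Blastocyst. The number at 1 FPKM or more was 98, 73, 55, 37, 20 and 9 over the same stages. The highest stage was E2-cell for 39, L2-cell for 46, 4-cell for 4, 8-cell for 2, Morula for 5 and Blastocyst for 2.

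**Figure D1:**
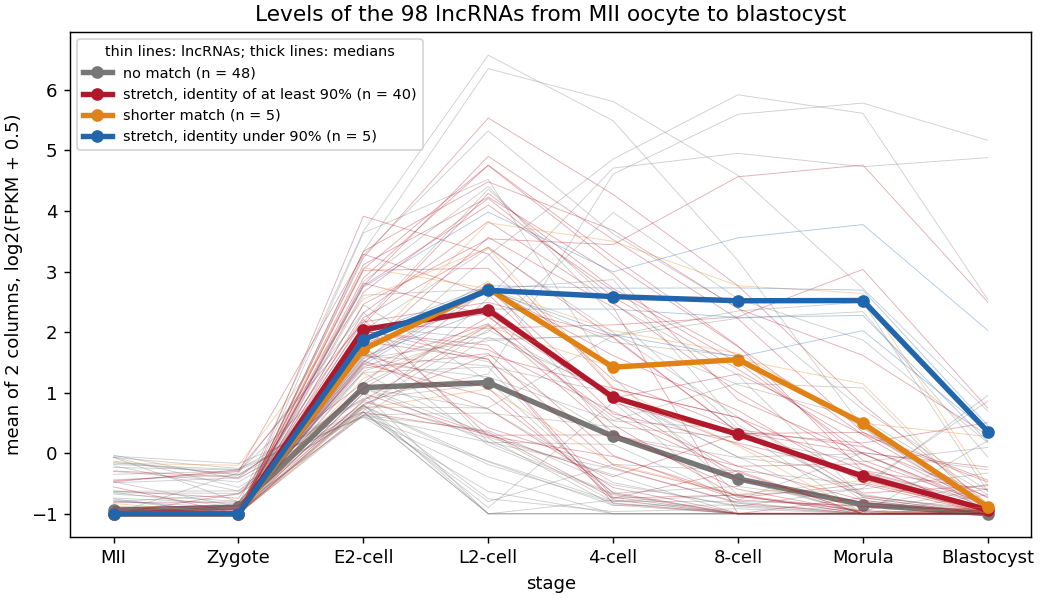
Mean level of each of the 98 lncRNAs by stage (thin lines, mean of 2 columns, log2(FPKM + 0.5)). Colour gives the stretch near the transcript start, and thick lines are group medians. The 5 lncRNAs with the stretch at under 90% identity kept a median of 5.24 FPKM at Morula, where the 40 with at least 90% had 0.270 FPKM.

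B020004C17Rik was the highest of the 98 at L2-cell, with 13.7 and 10.7 FPKM at E2-cell, 85.3 and 104 FPKM at L2-cell and 41.3 and 47.4 FPKM at 4-cell. Gm13068, an antisense gene overlapping Slc25a33, had a like course with 10.2 and 8.91 FPKM at E2-cell, 71.2 and 90.9 FPKM at L2-cell, 55.1 and 55.8 FPKM at 4-cell and 1.09 and 1.15 FPKM at Blastocyst. Gm46189 marked the other extreme, with 1.32 and 1.65 FPKM at E2-cell and 0 at every other stage. The strand used in counting was not given in the sources used here, so reads of an antisense lncRNA and of the gene it overlaps cannot be told apart.

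The first comparison on samples that did not choose the lncRNAs set Early2c_MT2Mm_ctrl against Late1c_MT2Mm_ctrl, both wild-type BDF1. Of the 98, 85 rose and 2 fell at Early2c, with a median log2 difference of 2.95 against -0.01 over all 20796 genes tested. Over all genes, 29.7% rose and 34.1% fell. Differences throughout are on the log2(FPKM + 0.5) scale, which understates changes of low genes, and calls are at an adjusted p below 0.05 with limma's moderated test and Benjamini-Hochberg adjustment over all genes tested. Among the other annotated lncRNAs tested, 354 of 1348 rose and 370 fell.

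The 98 reached a mean of 1 FPKM or more in Early2c_MT2Mm_ctrl in 81 cases, and 10 stayed below 0.2 FPKM there. Of those 10, 8 were antisense genes, overlapping Usp46, Uhmk1, Cdkn1c and others on the opposite strand. Several also differed between the E2-cell columns that chose them: Usp46os1 had 0 and 2.2 FPKM, Gm12758 had 0.167 and 2.28 FPKM and D830050J10Rik had 0.618 and 2.63 FPKM. For these 3 the level that chose them came mainly from 1 column.

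Gm6507 (lincRNA, chr6:89184672-89186025, minus strand, no stretch) was the highest of the 98 in Early2c_MT2Mm_ctrl, with 48.5, 40.2 and 35.6 FPKM, against 0.0859, 0.255 and 0.198 FPKM in Late1c_MT2Mm_ctrl (log2 difference 5.94, SE 0.17, limma adjusted p = 1.64e-10). Gm48399 (chr13:78374179-78384198, plus, no stretch) had 27.3, 25.8 and 26.2 FPKM in Early2c_MT2Mm_ctrl and 0 in each Late1c_MT2Mm_ctrl library (5.75, SE 0.13, adjusted p = 3.18e-11). Obox4-ps35, an Obox-family pseudogene whose reads may be split with its relatives, had 19.3, 24 and 21.8 FPKM in Early2c_MT2Mm_ctrl and 0 in each Late1c_MT2Mm_ctrl library. The groups of each of the 3 were far apart.

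The 2 that fell were Gm29103 and Gm43650, whose transcripts lie at 97.8% and 100% of their length in transcripts of other genes. Gm29103 had 0.746, 35.2 and 1.53 FPKM in Early2c_MT2Mm_ctrl and 80.7, 48.5 and 86.6 FPKM in Late1c_MT2Mm_ctrl, and 0.0763 and 2.27 FPKM in the E2-cell columns. Its libraries varied widely within a group, and its reads cannot be assigned with certainty. Sums are given without this pair, a choice made after their values were seen. Sharing with other genes does not set the pair apart. BC061195, Gm44739, Gm47404 and Gm48829, also at 100%, were kept in the sums. Wide variation within a group is given here for Gm29103 only.

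Most of the 98 were lower after MT2Mm knockout at Early2c. In Early2c_MT2Mm_ko against Early2c_MT2Mm_ctrl, 74 fell and none rose, with a median log2 difference of -0.96 against 0.08 over all 20796 genes tested. Over all genes, 11.5% fell and 23.2% rose, a split that became 18.0% and 16.6% when columns were rescaled to a common level, under which 75 of the 98 fell. The summed level without Gm29103 and Gm43650 was 242, 259 and 263 FPKM in Early2c_MT2Mm_ko, against 505, 535 and 511 FPKM in Early2c_MT2Mm_ctrl. All 3 ko libraries were below all 3 ctrl libraries for 72 of the 98 (73.5%), as they were for 14.9% of all genes tested, and above them for 0 of the 98 and 29.3% of all genes. Among the other annotated lncRNAs tested, 138 of 1348 fell and 210 rose. Genes compared with the 98 here, and for LncR-3363 below, passed at 1 FPKM in any group with replicates. Their levels were not matched to those of the 98, so some may be too low in the controls to fall.

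For the 81 lncRNAs at 1 FPKM or more in the controls, the knockout level was a median of 37.4% of the control level, with a range of 9.64% to 186%. In 60 of them it was under 50%.

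**Figure D2:**
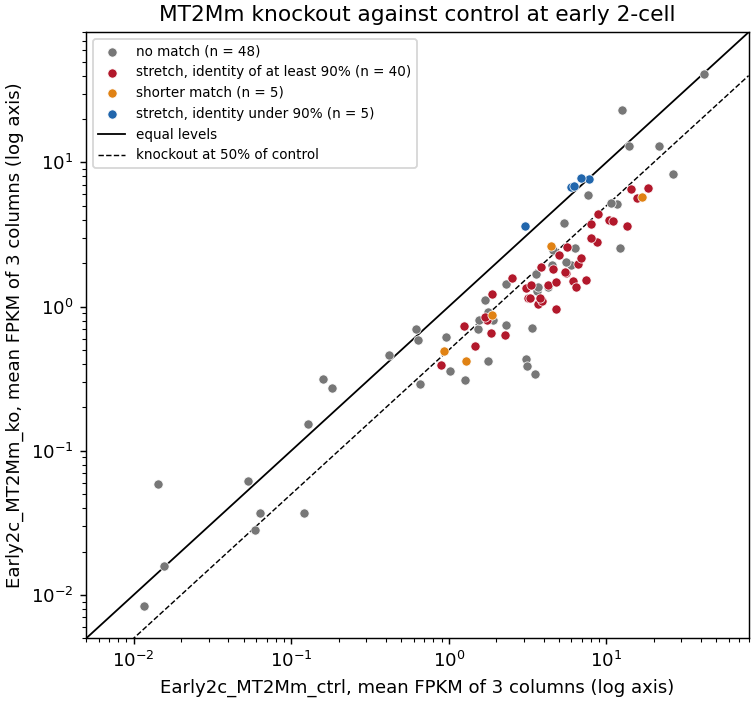
Mean level of each of the 98 lncRNAs in Early2c_MT2Mm_ko (vertical) against Early2c_MT2Mm_ctrl (horizontal), in FPKM on log axes, 3 libraries each. Lines mark equal levels and 50%. The 40 lncRNAs with the stretch at 90% identity or more all lie below the line of equal levels, and the 5 with lower identity lie on or near it.

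The largest fall was that of 2310040G24Rik (chr6:86483376-86488227, minus strand), with 0.231, 0.417 and 0.377 FPKM in Early2c_MT2Mm_ko against 3.91, 3.40 and 3.32 FPKM in Early2c_MT2Mm_ctrl (log2 difference -2.27, SE 0.10, limma adjusted p = 1.84e-07). Gm47897 had 2.72, 1.99 and 2.92 FPKM in ko and 11.5, 13.7 and 11.3 FPKM in ctrl libraries (-2.06, SE 0.14, adjusted p = 2.26e-06). Gm46189 had 0.411, 0.311 and 0.438 FPKM in ko and 2.66, 3.68 and 3.02 FPKM in ctrl libraries (-2.02, SE 0.10, adjusted p = 4.10e-07). These 3 carried no stretch at their annotated start, and their groups did not overlap.

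Lower levels were also seen in lncRNAs that carried the stretch. Gm28826 had 1.72, 1.57 and 1.33 FPKM in ko and 7.13, 6.69 and 8.51 FPKM in ctrl libraries (-1.96, SE 0.11, adjusted p = 6.77e-07). Gm44736 had 5.43, 6.44 and 8.23 FPKM in ko and 17.9, 19.5 and 17.6 FPKM in ctrl libraries (-1.40, SE 0.15, adjusted p = 3.08e-05). Gm33466 had 5.71, 6.57 and 4.79 FPKM in ko and 15.1, 15.4 and 16.3 FPKM in ctrl libraries (-1.39, SE 0.10, adjusted p = 2.64e-06). Every ko library was below every ctrl library for each of the 3. Drr1, one of the few with a name other than a clone number, had 1.48, 1.10 and 1.68 FPKM in ko and 3.72, 2.98 and 3.34 FPKM in ctrl libraries (-1.01, SE 0.12, adjusted p = 6.95e-05).

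Among the most abundant, Gm48399 fell to 7.26, 10.8 and 7.04 FPKM in ko libraries, against 27.3, 25.8 and 26.2 FPKM in ctrl libraries (-1.63, SE 0.13, adjusted p = 5.53e-06). Obox4-ps35 had 14, 13 and 12 FPKM in ko libraries and 19.3, 24 and 21.8 FPKM in ctrl libraries (-0.71, SE 0.09, adjusted p = 8.79e-05). Gm6507 did not pass the test, with 31.4, 47.4 and 44.5 FPKM in ko and 48.5, 40.2 and 35.6 FPKM in ctrl libraries (-0.02, SE 0.17, adjusted p = 0.940). B020004C17Rik did not pass it either, with 12.4, 13.9 and 12.9 FPKM in ko and 14.4, 15.3 and 12.3 FPKM in ctrl libraries (-0.09, SE 0.09, adjusted p = 0.504). In these last cases the groups overlapped.

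**Figure D3:**
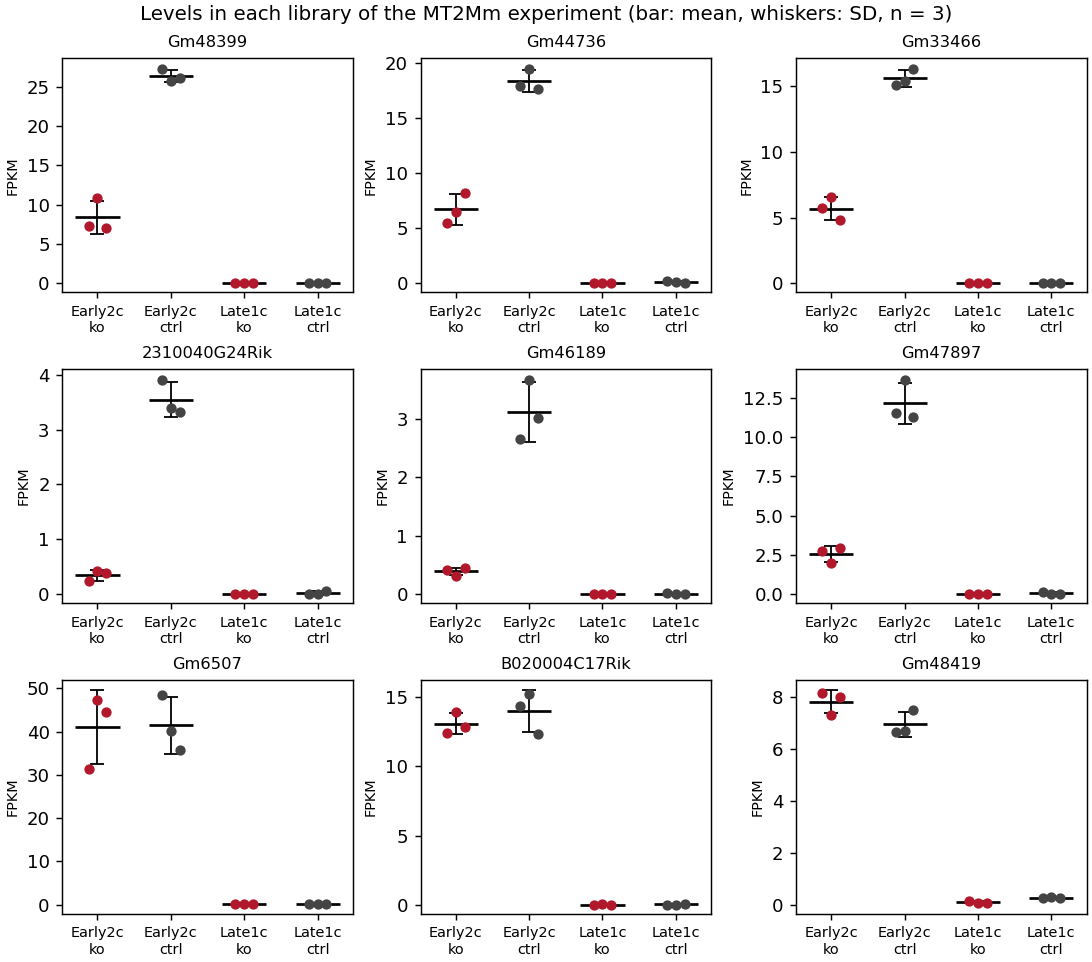
FPKM of 9 lncRNAs in each library of the MT2Mm experiment (points; red ko, grey ctrl), with mean and SD (n = 3). Gm48399, Gm44736, Gm33466, 2310040G24Rik, Gm46189 and Gm47897 were lower in Early2c ko than in Early2c ctrl libraries in every case, while the groups of Gm6507, B020004C17Rik and Gm48419 overlapped.

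Divided by the shared stretch, a division chosen after the knockout values were known, all 40 lncRNAs with at least 90% identity fell in Early2c_MT2Mm_ko (median log2 difference -1.28, range -1.96 to -0.47). None of the 5 with lower identity fell (median 0.15). Their knockout levels were a median of 35.9% of control (20.2% to 65.4%) in the 39 of the first group at 1 FPKM or more in the controls and 112% (98.8% to 120%) in the second. Of the 48 without a match, 29 fell (median -0.70), and all 5 with a shorter match fell. As the 5 of lower identity hold only a pair of versions of the stretch and lie on 1 chromosome, they are not independent of each other. Nor are all of the 40. Some, among them Gm47404, Gm47739 and Gm48829, have 100% of their longest transcript at 95% identity in transcripts of other genes, so reads may be split among such copies.

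Gm48419, with the lower-identity stretch, had 8.14, 7.30 and 7.97 FPKM in Early2c_MT2Mm_ko and 6.64, 6.69 and 7.49 FPKM in Early2c_MT2Mm_ctrl (0.16, SE 0.08, adjusted p = 0.161). Gm8016 had 4.93, 2.80 and 3.19 FPKM in ko and 3.43, 3.07 and 2.58 FPKM in ctrl libraries (0.20, SE 0.18, adjusted p = 0.425). Their ko and ctrl libraries overlapped. Gm49236, at 91.7% identity, had 1.73, 2.01 and 1.89 FPKM in ko and 3.54, 4.84 and 3.21 FPKM in ctrl libraries, which did not overlap (-0.86, SE 0.12, adjusted p = 0.000333).

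Genes outside the 98 that carry the stretch gave the same measure, in the same libraries, for features on which the division had not been made. Of 55 tested with at least 90% identity, 34 fell and 3 rose in Early2c_MT2Mm_ko (median -0.37). Of 28 with lower identity, 8 fell and 2 rose (median -0.12), whereas none of those with lower identity among the 98 fell. Of the 16 that were annotated lncRNAs, 10 fell. Over all genes tested, 11.5% fell and 23.2% rose.

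**Figure D4:**
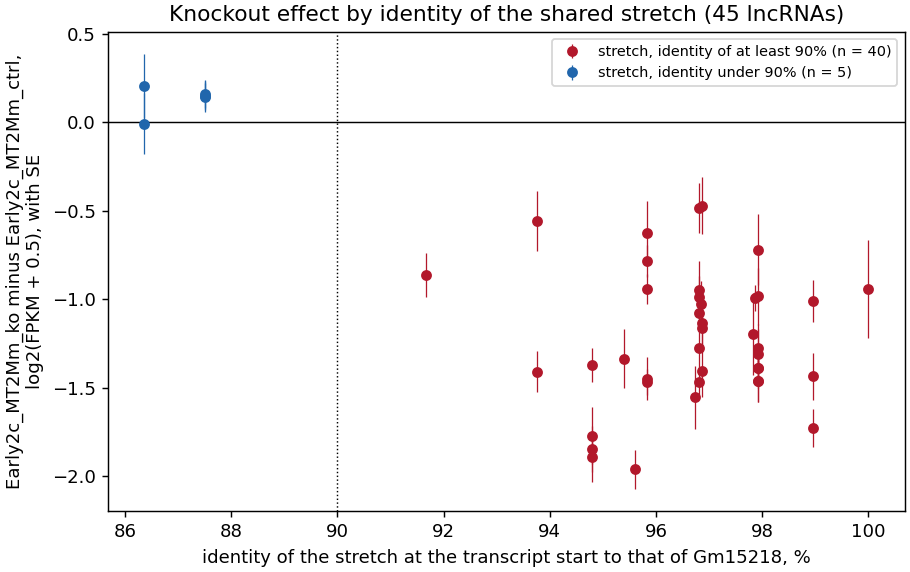
Difference between Early2c_MT2Mm_ko and Early2c_MT2Mm_ctrl, log2(FPKM + 0.5) with SE, against identity of the stretch to Gm15218 in percent, for the 45 lncRNAs that carry it. All 40 points right of the dotted line at 90% are below 0, and the 5 to its left have a median of 0.15.

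At Late1c, where levels of the 98 were already low, no difference passed the test. In Late1c_MT2Mm_ko against Late1c_MT2Mm_ctrl none rose or fell by limma's test, as 0% of all genes did, and 8 of the 98 and 1393 of the 20796 genes tested had an unadjusted p below 0.05; with a pseudocount of 0.1 FPKM in place of 0.5, 3 of the 98 fell. The sum without Gm29103 and Gm43650 was 4.57, 3.17 and 3.97 FPKM in Late1c_MT2Mm_ko and 7.22, 6.62 and 6.38 FPKM in Late1c_MT2Mm_ctrl, which did not overlap. The difference between the knockout effects at Early2c and at Late1c was itself tested: it was negative for 60 of the 98 and positive for 3 (median -0.92, against 0.09 over all genes). Over all genes it was called for 24.1%, negative for 7.73% and positive for 16.4%, or 12.2% and 10.9% after rescaling. The median of the 98 in Late1c_MT2Mm_ctrl was 0.0234 FPKM, which left little room to fall there on this scale. For most of the 98 the difference of effects therefore repeats the Early2c effect and is no separate result. The 3 positive cases were Gm7969, Gm48419 and Gm48423, which share 1 version of the stretch. Gm48419 had 0.135, 0.0764 and 0.0738 FPKM in Late1c_MT2Mm_ko and 0.245, 0.290 and 0.254 FPKM in Late1c_MT2Mm_ctrl, and its difference of effects was 0.52 (SE 0.11, adjusted p = 0.00744). After rescaling, 1 of the 98 rather than 3 was positive.

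Other genes of the 2-cell programme were followed as a list of 43 tested genes. Of them 40 rose and 2 fell in Early2c_MT2Mm_ctrl against Late1c_MT2Mm_ctrl, whereas 13 fell and 5 rose in Early2c_MT2Mm_ko against Early2c_MT2Mm_ctrl. Spz1, a testis-enriched transcription factor gene, averaged 4.35 FPKM in ko and 13.6 FPKM in ctrl libraries (-1.54), and Zscan4c, a 2-cell zinc finger gene, 46.1 FPKM in ko and 67.9 FPKM in ctrl libraries (-0.55). Duxf3, a Dux-family gene, averaged 6.71 FPKM in ko and 3.70 FPKM in ctrl libraries (0.77), and Arg2, a mitochondrial arginase gene, 45.4 FPKM in ko and 17.4 FPKM in ctrl libraries (1.36). Of 14 oocyte genes, whose transcripts are maternal and decline after fertilization, 7 rose and 2 fell in Early2c_MT2Mm_ko, with a summed level of 2051 to 2213 FPKM in ko and 1826 to 1979 FPKM in ctrl libraries. The part of this maternal difference in the levels of the 98 was not tested.

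In the time series most of the 98 were still at low levels at 20 h. The sum without Gm29103 and Gm43650 was 5.39 and 5.59 FPKM at 14 h, 7.81 and 9.99 FPKM at 17 h and 18.1 and 24.2 FPKM at 20 h. Without this pair, the columns of each time did not overlap with those of another. With the pair kept, the sum was 21.98 and 12.76 FPKM at 14 h, 39.35 and 27.03 FPKM at 17 h and 28.48 and 30.86 FPKM at 20 h. The 17 h and 20 h columns then overlapped, so the steady rise of the sum depends on leaving the pair out. A mean of at least 0.1 FPKM was reached by 20 lncRNAs at 14 h, 31 at 17 h and 64 at 20 h. Of the 86 tested between 20 h and 14 h, 35 rose and none fell (median log2 difference 0.30, against 0.03 over all 19845 genes tested, of which 13.9% rose and 13.9% fell). The count ranged from 28 to 39 without a 20 h column and from 16 to 18 without a 14 h column. With 1 FPKM required in the time-series columns themselves, 2 of the 98 were tested and 0 passed; the median level of the 98 at 20 h was 0.141 FPKM.

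Gm47595, an antisense gene on chromosome 10, had 0.832 and 0.673 FPKM at 20 h and 0 in both 14 h columns (1.32, SE 0.08, limma adjusted p = 0.000934). Gm48419 had 0.634 and 0.652 FPKM at 20 h and 0.0410 and 0.0466 FPKM at 14 h (1.07, SE 0.11, adjusted p = 0.00338). Gm33466 had 0.368 and 0.294 FPKM at 20 h and 0 in both 14 h columns (0.73, SE 0.10, adjusted p = 0.00569). Each was still below 1 FPKM at 20 h, with no overlap. The column names of the 14 h and 20 h samples end in merge and those of the 17 h samples in cat, and what was joined was not given. Of 5 tested cumulus and granulosa genes, markers of the cells that surround the oocyte, 4 also rose, and the list of 12 summed to 12.9 to 13.6 FPKM at 20 h and 7.61 to 7.99 FPKM at 14 h. The part of these cells in the result was not tested.

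A smaller number of the 98 were lower after LncR-3363 knockdown. The columns used are named lnc2, which was taken to stand for LncR-3363 because no other samples of the series remain for them, and LncR-3363 itself is not a named row, so the knockdown was not checked here. In KD-1cell against Ctrl, 27 of the 98 fell and none rose (median log2 difference -0.52, against 0.05 over all 20371 genes tested). Over all genes 8.77% fell and 16.2% rose, or 12.1% and 10.9% after rescaling, under which 34 of the 98 fell. The sum without Gm29103 and Gm43650 was 244, 222, 227 and 186 FPKM in KD-1cell and 314, 366, 308 and 354 FPKM in Ctrl, with no overlap. All 4 KD-1cell libraries were below all 4 Ctrl libraries for 28 of the 98 (28.6%), as they were for 9.82% of all genes tested, and above them for 0 of the 98 and 18.1% of all genes.

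Gm47381 fell most, with 0.769, 0.633, 0 and 2.07 FPKM in KD-1cell and 6.09, 5.77, 2.94 and 5.25 FPKM in Ctrl (-2.20, SE 0.46, limma adjusted p = 0.00832). Gm47896 had 3.43, 3.29, 2.36 and 2.78 FPKM in KD-1cell and 7.44, 6.57, 8.94 and 8.24 FPKM in Ctrl (-1.26, SE 0.13, adjusted p = 0.000231). Gm12724 had 7.17, 7.25, 7.38 and 7.03 FPKM in KD-1cell and 10.2, 12.5, 9.26 and 12.2 FPKM in Ctrl (-0.57, SE 0.10, adjusted p = 0.00317). None of these groups overlapped. Gm48399 did not pass the test, with 13.2, 8.72, 14.7 and 5.57 FPKM in KD-1cell and 13.8, 19.0, 15.5 and 21.7 FPKM in Ctrl, and its groups overlapped.

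Of the 27 that fell in KD-1cell, 25 were among the 74 of the 98 that fell in Early2c_MT2Mm_ko. Since 75.5% of all 98 fell there, nothing is read from the overlap. Gm47896 had 2.76, 4.18 and 3.96 FPKM in Early2c_MT2Mm_ko and 16.2, 12.6 and 11.7 FPKM in Early2c_MT2Mm_ctrl (-1.77, SE 0.16, adjusted p = 1.21e-05). Gm47381 had 6.25, 6.02 and 5.63 FPKM in ko and 7.34, 6.54 and 9.02 FPKM in ctrl libraries (-0.32, adjusted p = 0.0466), a small change beside its fall in KD-1cell. The 27 included 14 with the stretch at 90% identity or more: 9 of the 11 whose longest transcript lies mostly in other genes, and 5 of the other 29. Among the 77 lncRNAs not mostly shared with other genes, 17 fell.

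The single KD-2cell library was above the highest Ctrl library for 10 lncRNAs (10.2%) and below the lowest for 31 (31.6%), against 25.1% and 18.2% of all genes tested. It was above the highest KD-1cell library for 44 (44.9%) and below the lowest for 6 (6.12%), against 21.9% and 27.1% of all genes. Its sum was 279 FPKM, above the KD-1cell libraries and below the Ctrl libraries. With 1 library no test was made. Of the 14 oocyte genes 9 rose and none fell in KD-1cell, with a sum of 2436 to 2766 FPKM in KD-1cell and 1956 to 2117 FPKM in Ctrl. Of the 43 genes of the 2-cell programme 4 rose and 2 fell. Called or not, 32 of them had a negative difference and 11 a positive difference. Their median log2 difference was -0.26, against 0.05 over all genes tested. Duxf3, with a positive difference, averaged 15.4 FPKM in KD-1cell and 6.36 FPKM in Ctrl (1.20). The part of these differences in the levels of the 98 was not tested.

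**Figure D5:**
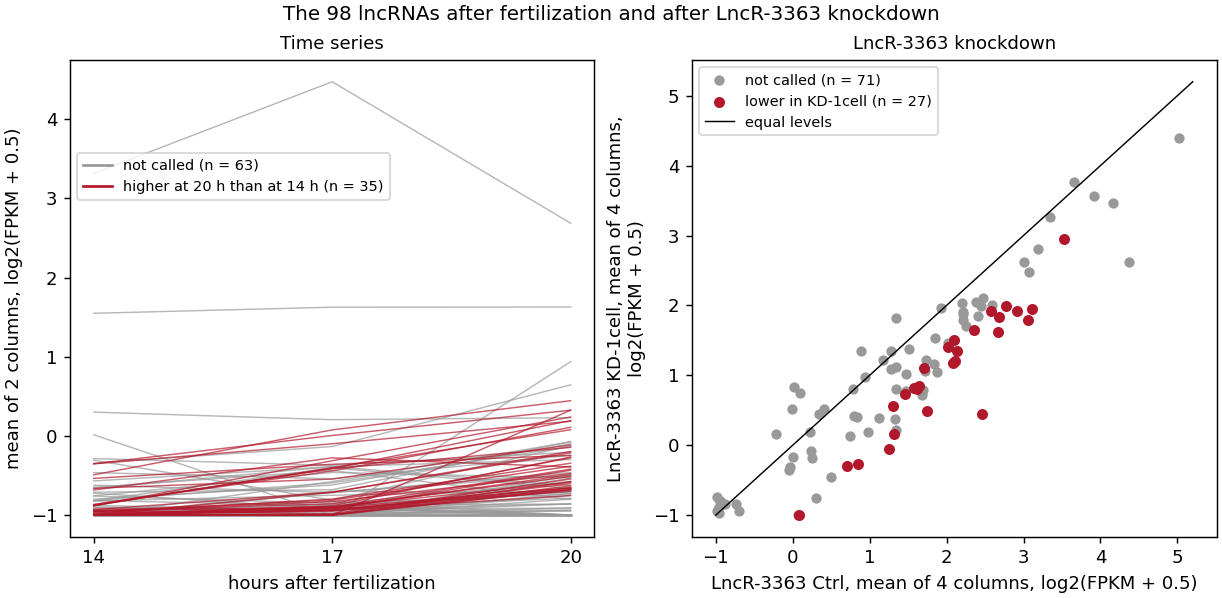
Left, mean of 2 columns at 14, 17 and 20 h after fertilization, log2(FPKM + 0.5), for each of the 98 lncRNAs, with the 35 higher at 20 h than at 14 h in red and the others, tested or not, in grey. Right, mean of 4 libraries in LncR-3363 KD-1cell against Ctrl on the same scale, with the 27 that fell in red, all below the line of equal levels.

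After the 2-cell stage most of the 98 declined. In 4-cell against L2-cell, 63 fell and 6 rose (median log2 difference -0.90, against 0 over all 20944 genes tested, of which 54.2% were called, 25.4% lower and 28.7% higher). In Blastocyst against 4-cell, 67 fell and 2 rose (median -1.42, against -0.08 over all genes, of which 58.6% were called, 31.6% lower and 27.0% higher). Gm48399 had 2.2 and 1.58 FPKM at 4-cell and 24.5 and 20.4 FPKM at L2-cell (-3.27, SE 0.19, limma adjusted p = 2.92e-07). B020004C17Rik was at 0 at Blastocyst, against 41.3 and 47.4 FPKM at 4-cell (-6.48, SE 0.19, adjusted p = 4.5e-10). The names of the 4-cell and later columns end in merge, with what was joined not given, and those of the L2-cell columns in b3, so for 4-cell against L2-cell the naming and the stage cannot be told apart.

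Of the 6 lncRNAs that rose in 4-cell against L2-cell, 3 are given here with their later levels. 1110038B12Rik (processed_transcript, chr17:34950238-34952471, minus strand) had 25.0 and 22.8 FPKM at 4-cell and 2.08 and 1.88 FPKM at L2-cell (3.30, SE 0.12, adjusted p = 1.43e-08), and 35.7 and 35.1 FPKM at Blastocyst. Epb41l4aos, on chromosome 18, had 29.1 and 22.2 FPKM at 4-cell and 3.22 and 7.61 FPKM at L2-cell (2.24, SE 0.28, adjusted p = 6.13e-05), and 29.2 and 28.7 FPKM at Blastocyst. 2310040G24Rik, with the largest fall under MT2Mm knockout, had 28.4 and 28.6 FPKM at 4-cell and 7.39 and 10.9 FPKM at L2-cell (1.61, SE 0.20, adjusted p = 5.51e-05), and 59.7 and 60.2 FPKM at 8-cell. It then fell to 5.26 and 5.36 FPKM at Blastocyst (Blastocyst against 4-cell -2.32, SE 0.20, adjusted p = 1.8e-06). Gm33248, whose stretch is printed above, was not among the 6 (-0.11, SE 0.17, adjusted p = 0.636). It had its highest values at Morula, at 30.8 and 22.4 FPKM, and was lower at Blastocyst than at 4-cell (-0.94, SE 0.17, adjusted p = 0.000584).

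By position, chromosome 13 held 16 of the 98, against 6.35% of all annotated lncRNA genes, chromosome 10 held 13 (5.95%), chromosome 7 held 12 (6.53%) and chromosome 12 held 9 (5.16%). Many on chromosome 13 have 100% of their longest transcript at 95% identity in transcripts of other genes. Among them are Gm47404, Gm48419, Gm48423, Gm48829, Gm7969 and Gm8016. Reads may be split among such copies, so the chromosome 13 count is not one of independent genes. Shares without such copies were not computed. An antisense overlap with a protein-coding gene was annotated for 28 of the 98 (28.6%, against 33.8% of other lncRNA genes), and the median distance to the nearest protein-coding start was 52024 bases, against 36803 bases for the others. Head to head with a protein-coding start was 1 of them, 1700086P04Rik, 288 bases from that of Rnf19b, a ubiquitin ligase gene. Rnf19b averaged 49.9 FPKM in Early2c_MT2Mm_ko and 59.1 FPKM in Early2c_MT2Mm_ctrl (-0.24), and 1700086P04Rik 0.459 FPKM in ko and 0.416 FPKM in ctrl libraries (0.09, SE 0.19, adjusted p = 0.764).

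In some neighbouring pairs 1 lncRNA carried the stretch and both fell. Gm47897, without it, begins 1815 bases downstream of Gm47896, which has it at 94.8% identity, on the plus strand of chromosome 10, and the pair fell by 2.06 and 1.77 on the log2 scale in Early2c_MT2Mm_ko. Gm44739, without the stretch and with 100% of its transcript also in transcripts of other genes, lies 4490 bases upstream of Gm44736, which has it, on the minus strand of chromosome 7, and had 5.84, 4.35 and 5.52 FPKM in Early2c_MT2Mm_ko and 10.3, 11.4 and 10.3 FPKM in Early2c_MT2Mm_ctrl (-0.97, SE 0.12, adjusted p = 9.19e-05). Whether such neighbours are parts of 1 transcript was not tested.

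Over the whole series, the 43 columns of values summed to between 311543 and 720832 FPKM and held between 10704 and 12892 genes at 1 FPKM or more. Replicate columns correlated across genes at 0.957 to 0.994 on the log scale, and no columns were equal. Read counts were not among the values used, so depth is unknown and no counting intervals are given. The oocyte genes were present as labelled, their sum being 6915 to 7526 FPKM in MII and 23.4 to 23.6 FPKM in Blastocyst columns, and the 8 sperm and testis genes summed to at most 8.24 FPKM in any column.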

How the data were processed

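Total RNA-seq values were taken as FPKM per gene from the table deposited by the authors. Per the submitters' processing notes, cutadapt 1.18, HISAT2 2.1.0, StringTie 1.3.4d, Cufflinks and Cuffdiff 2.2.1 were used with GRCm38; their order and settings were not given. Per the labels' protocols, libraries were stranded total RNA kits, with a low-input kit for small amounts, and which sample used which is not given. How multi-mapped reads were treated and whether strand was used is not stated, which matters because 21 of the 98 lncRNAs have over 50% of their longest transcript in other genes at 95% identity.

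Genes were kept at a mean of 1 FPKM or more in any group with replicates, so the rule by which the 98 were chosen makes them all pass. A gene at 0 in all samples of a comparison was not tested. limma 3.58.1 (R 4.3.3) was fitted to log2(FPKM + 0.5), with an intensity trend, separately for the MT2Mm, time, LncR-3363 and stage samples, with calls at an adjusted p below 0.05, and was tested on simulated data. Alternatives were pseudocounts of 0.1 and 1, no filter or a stricter one, column rescaling, a replicate block and leaving out each replicate. Transcripts were compared with blastn 2.17.0. Named lncRNAs are the highest, those with the largest changes, those with names other than clone names and those at thresholds. Gm15218, Gm35974, Gm47595, Gm48436, Gm49236, Gm8016, Gm12758 and D830050J10Rik were added after their values were seen. The lncRNAs and gene lists were chosen with earlier results of these data known. Figures were drawn with Matplotlib 3.10.9.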

Additional observations from a re-analysis of the deposited data

Results flagged for a closer look

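The effect of MT2Mm knockout at Early2c differed from that at Late1c for 63 of the 98 lncRNAs by a limma test of the difference itself. On the log2(FPKM + 0.5) scale the effect at Early2c minus that at Late1c was -2.22 for 2310040G24Rik (adjusted p = 7.21e-06), -2.01 for Gm46189, -1.93 for Gm47897, -1.90 for Gm28826, -1.89 for Gm45593 and -1.83 for Gm14929. It was positive for Gm48419 at 0.52, Gm48423 at 0.49 and Gm7969 at 0.49. Levels at Late1c were near 0 for most of these, which limits how far they could fall there.

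In the LncR-3363 experiment 34 groups of values of named lncRNAs were examined for a library far from the others of its group, which chance gives in about 1 in 20. In KD-1cell, Gm47897 had 0.995 FPKM in its lowest library. In Ctrl, Gm44693 had 3.95 FPKM in its lowest library and Gm29103 had 61.9 FPKM in its highest. The single KD-2cell library, which entered no test, was above the highest Ctrl library for 10 of the 98 (10.2%) and below the lowest for 31 (31.6%). Over all genes tested it was above the highest for 25.1% and below the lowest for 18.2%.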

How the results depend on the processing

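Counts are of the 98 lncRNAs and all are from limma. In Early2c_MT2Mm_ko against Early2c_MT2Mm_ctrl between 65 and 75 fell under the alternatives run, against 74, and 59 of the 77 not mostly shared with other genes. In Early2c_MT2Mm_ctrl against Late1c_MT2Mm_ctrl between 78 and 89 were called in either direction, against 87, and 66 of those 77. With a pseudocount of 0.1, 3 fell in Late1c_MT2Mm_ko; the cause was not tested. The 20 h against 14 h count ranged from 16 to 39 when a column was left out, and was 0 of only 2 tested when 1 FPKM was required in the samples, since most were lower. In KD-1cell against Ctrl, 17 of the 77 not mostly shared fell, fewer lncRNAs being counted. The 40 with the stretch at 90% identity or more gave counts of 35 to 40 fallen in Early2c_MT2Mm_ko, and the 5 below it 0. Of the values of named lncRNAs, 607 kept their direction and side of the threshold, 11 kept their direction and lost the call and 0 reversed; Gm29103 lost its call at -3.04 and -3.40 without an Early2c_MT2Mm_ctrl library (replicates 1 and 3), and Gm47897 in KD-1cell lost its call without any 1 of the Ctrl libraries. With the replicate number as a block, 71 fell in Early2c_MT2Mm_ko, 0 in Late1c_MT2Mm_ko and the difference of effects was called for 60, against 63. Same-numbered libraries of the MT2Mm groups correlated at -0.092 to 0.106 in their deviations, so the numbers were not taken as pairing. No paired analysis was possible because the columns of the other groups compared carry no replicate number that the labels tie across groups. Depth is unknown, so counting error could not be given for low values.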
